A study of Mus musculus with 3 samples.

Results

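Transcripts annotated as targets of nonsense-mediated decay were examined in the cytosolic RNA of mouse macrophages. A transcript was selected on its TPM: its type in the target names had to be nonsense_mediated_decay and its level had to reach at least 1 TPM (a level per length that sums to the same total in every library) in each of the 3 libraries. This rule selected 572 transcripts in 515 genes, out of 7186 transcripts of that type and 141767 transcripts in all, so 7.96% of the annotated decay transcripts were kept. The libraries come from bone marrow-derived macrophages of C57BL/6J mice, whose sex and age were not recorded. All 3 are replicates of 1 group: the cells first saw Lipid A, the membrane anchor of bacterial lipopolysaccharide, at 100 ng/ml for 12 h, rested for 12 h after it was washed out, and met the same 100 ng/ml dose for another 50 min before the cytosol was separated. The label describes them as biological replicates of 1 strain-level donor entry, so the spread between them may be partly technical. No untreated library and no nuclear fraction is compared here, and every value is a level within this 1 condition.

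Nonsense-mediated decay is a surveillance pathway that couples translation to the destruction of an mRNA. When a ribosome terminates upstream of an exon junction that still carries its exon junction complex, the factor UPF1 is activated and the mRNA is degraded in the cytosol. Many genes produce such transcripts through alternative splicing, for example by including a "poison" exon that carries a stop codon, and several splicing factors use this route to limit their own level. The annotated type records only the layout of the stop codon and the junctions. It does not record whether a transcript is degraded, and no decay rate was measured.

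In replicates 1, 2 and 3 the depth was 47972062, 54409436 and 53491957 expected counts on genes. The members took 1.03%, 0.943% and 1.02% of these counts. The signal recognition particle RNAs Rn7s1 and Rn7s2, short and abundant, held 55.0%, 64.0% and 56.6% of all TPM, and protein-coding genes held 33.3%, 26.1% and 37.0%. In the kallisto-layout tables these values were 25.4%, 18.2% and 13.8% for the Rn7s pair and 19.6%, 9.70% and 10.9% for protein-coding genes. The part of the TPM total left for protein-coding genes thus differed between libraries and was lowest in replicate 2 in both layouts, and shares within a gene or CPM (counts scaled to library size with TMM factors) are the measures compared between replicates. Of 10 macrophage markers all 10 were above 1 TPM in every library, while none of the 4 T cell, 4 B cell and 4 fibroblast markers was. Of 5 neutrophil markers 2 passed 1 TPM and 1 was at 0, with a summed level of 7.85 to 10.4 TPM, and of 4 dendritic cell markers 1 passed, with a sum of 1.49 to 1.70 TPM, against 6400 to 8365 TPM for the macrophage list. Nuclear RNA was not equally low in the 3 fractions: Malat1, which stays in the nucleus, was at 5966, 3089 and 1426 CPM and Neat1 at 636, 248 and 128 CPM, both highest in replicate 1.

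In 116 of the 572 members the stop codon lay in an exon that the main coding transcript of the gene lacks. The main coding transcript was the one with the highest mean TPM among those annotated with a stop codon. Of the 116, 9 were taken from the most abundant members, those of highest share and the named members of splicing genes. For them the coding part of the added exon, which holds the stop codon, is printed here. Each runs 5′ to 3′ on the transcript's strand from the exon's first coding base to the stop codon, which is in capitals. Coordinates and sequence are those of GENCODE M21 on mm10.
Srsf3-201: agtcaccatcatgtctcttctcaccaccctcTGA
Srsf6-201: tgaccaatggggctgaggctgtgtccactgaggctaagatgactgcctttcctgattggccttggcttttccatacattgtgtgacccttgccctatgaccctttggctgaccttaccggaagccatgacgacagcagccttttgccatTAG
Tra2b-206: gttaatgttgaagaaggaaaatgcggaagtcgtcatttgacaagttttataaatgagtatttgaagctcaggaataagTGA
Rbm39-225: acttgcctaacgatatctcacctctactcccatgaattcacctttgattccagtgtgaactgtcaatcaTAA
Sf3b1-208: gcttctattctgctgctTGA
Lilrb4a-205: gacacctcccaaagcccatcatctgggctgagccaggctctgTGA
Ostf1-205: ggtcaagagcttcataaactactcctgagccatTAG
Xaf1-201: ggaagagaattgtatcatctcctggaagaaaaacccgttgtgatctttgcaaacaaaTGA
Ifi214-201: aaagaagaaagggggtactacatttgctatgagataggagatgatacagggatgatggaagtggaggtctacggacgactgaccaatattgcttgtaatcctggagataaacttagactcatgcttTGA
The Srsf3-201 run covers chr17:29039454-29039487 (plus strand) within an added exon of 456 bases, and the Srsf6-201 run covers chr2:162932815-162932966 (plus) within one of 268. The Tra2b-206 run covers chr16:22259181-22259261 (minus) of a 276-base exon, the Rbm39-225 run chr2:156178881-156178952 (minus) of a 73-base exon, and the Sf3b1-208 run chr1:55014905-55014924 (minus) of a 56-base exon. The remaining 4 runs cover chr10:51491434-51491478 (plus, exon of 285 bases), chr19:18598954-18598989 (minus, 77), chr11:72306564-72306623 (plus, 89) and chr1:173522891-173523019 (minus, 187). The stop codon lay 58 (Ifi214-201) to 1442 (Rbm39-225) bases before the last junction in 8 of the 9. In Xaf1-201 it lay 29 bases before the last junction, nearer than the 50 bases of the usual rule for calling such transcripts. In Ifi214-201 the stop codon ends at base 1488 of 1895, so it is not early in the transcript. Its exon counts as added only against a main coding transcript of lower mean TPM.

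**Figure D1:**
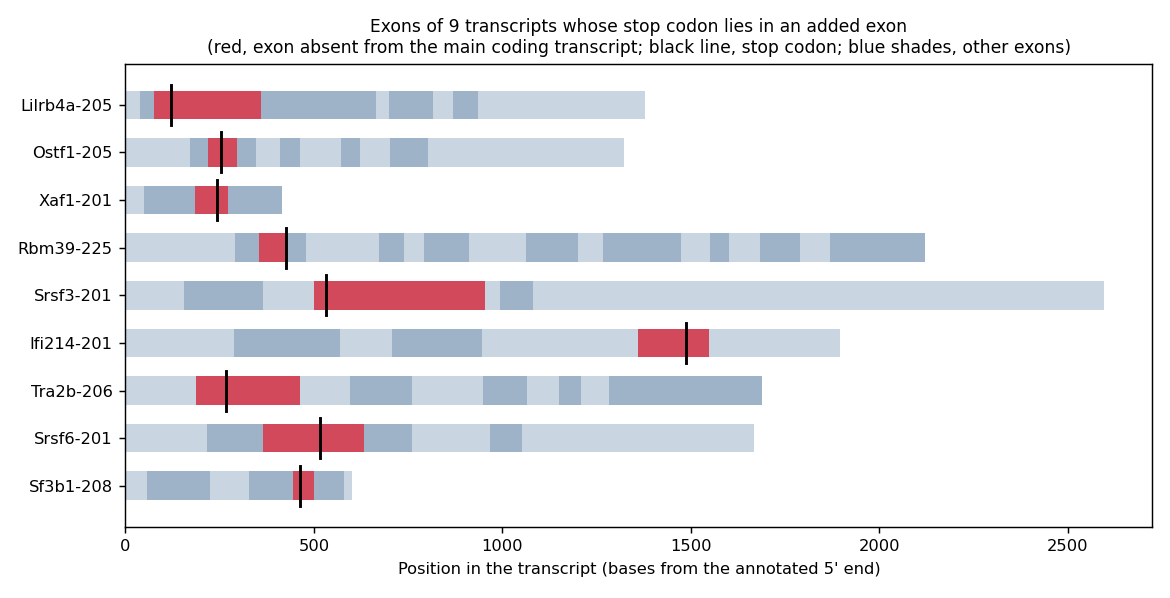
Exons of the 9 transcripts whose sequences are printed, drawn to scale along the transcript in bases from the annotated 5′ end. The added exon (red) holds the stop codon (black line), which falls 1015 bases before the last junction in Tra2b-206 and 29 bases before it in Xaf1-201.

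A different layout is found in the most abundant member, Ppia-201, which has only 5 exonic bases that the main coding transcript lacks. Its coding sequence runs for 120 bases before the stop codon. The 30 bases that end with the stop codon (in capitals) cross a junction. They are printed because a changed splice site brings this stop into frame.
Ppia-201: caaagacagcagaaaactttcgagctcTGA
Its stop codon lies at chr11:6418241-6418243 (plus strand), inside sequence that is exonic in the main coding transcript too.

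Placement of the stop codon within sequence shared with the main coding transcript was the most common layout, with 333 of 572 members (58.2%). Among these, 124 left out an exon, 89 used a changed splice site, 103 were annotated with another start codon and 14 gained an exon without holding the stop in it; 2 kept an intron and 1 both gained and left out an exon. Of the 103 with another start codon, 78 carry an annotation tag for an incomplete 5′ or 3′ end. The 2 ends were not told apart, so the true start may be unknown for some of them. The tag is not limited to this class: 144 of all 572 members carry it, several of those named below among them. The lengths and exon counts of tagged members may therefore be incomplete. Beside the 116 members with a stop in an added exon, 77 had it where an exon reaches beyond that of the main transcript, and 2 had it in an intron kept whole. In 40 members (6.99%) the stop codon was that of the main coding transcript and the junctions lay in the 3′ UTR behind it. The remaining 4 belong to genes with no other coding transcript that has an annotated stop. The 6614 annotated decay transcripts outside the selection had these layouts in shares of 56.1% (shared sequence), 25.1% (added exon), 11.0% (extended exon) and 4.76% (same stop).

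Members had a median of 8 exons, a length of 1529.5 bases and 3 junctions behind the stop codon. The stop lay a median of 360 bases before the last junction (quartiles 170 and 770), and 2 members had it nearer than 50 bases, Xaf1-201 and Huwe1-212 at 30 bases, a name given after its value was seen. Annotated decay transcripts outside the selection had medians of 7 exons, 1213 bases and 331 bases. The stop codon was TGA in 56.1% of members, TAA in 24.1% and TAG in 19.8%, against 58.0%, 22.3% and 19.7% outside the selection. At least 1 splice junction found in no other annotated transcript of the gene was present in 458 members, and 114 had none, among them Lilr4b-204 and Lilrb4a-205. The support level that the annotation gives a transcript, from 1 (best) to 5, was 1 for 238 members and 5 for 170, and 60 had none. Of the most abundant members named below, Ppia-201, Rgs1-204 and Lilr4b-204 have level 5 and Ostf1-205 has none. Oasl2-205, Lilrb4a-205, Mx1-205, Ctsh-202, Rpsa-206, Hnrnpu-206 and Xaf1-201 have level 1. The members were shorter than the main coding transcript in 452 of 568 cases, with median lengths of 1529.5 and 2758.5 bases.

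The level of a member had a median of 3.12 TPM (quartiles 1.95 and 6.52), the mean of the 3 libraries. In bulk RNA, fewer cells that hold a transcript and fewer copies per cell cannot be told apart. A mean of at least 5 TPM was reached by 181 members, 20 TPM by 42 and 100 TPM by 7. All decay transcripts together made up 1.82%, 1.63% and 1.76% of the TPM of protein-coding genes in replicates 1, 2 and 3 (mean 1.74% ± 0.0956, SD, n = 3), and the members alone 1.51%, 1.37% and 1.49%. In the tables of kallisto layout the same type held 2.14%, 1.87% and 2.00%. Retained-intron transcripts of protein-coding genes held 4.21%, 3.27% and 3.20% and were highest in replicate 1, the library with the most Malat1. The decay transcripts were also highest in replicate 1, by a smaller margin, and the part of nuclear RNA in this was not tested.

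Just inside the minimum stood Carnmt1-202, Stxbp2-213, Heatr1-206 and Rps6kc1-206, whose lowest libraries were at 1.00, 1.01, 1.01 and 1.01 TPM. Just outside were Pcnp-206, Rbm39-223, Elk3-202 and Dennd1a-209, each at 0.99 TPM in its lowest library. The deposited interval of the TPM estimate lay at or above 1 TPM in all 3 libraries for 386 of the 572 members.

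Among genes above 1 TPM in every library, 2820 have an annotated decay transcript, and 515 of them (18.3%) held a member. The percentage of each gene list below stands against this 18.3%. The lists were not matched to all such genes for level, and membership depends on level. These 515 include 463 genes with 1 member, 48 with 2, 3 with 3 and 1 with 4. Among the genes with several members and the largest summed levels were Lilr4b (2 members, 48.1% ± 2.36 of the gene's TPM), Mx1 (3, 60.8% ± 3.03), Rpl13a (2, 18.7% ± 5.87), Aup1 (2, 39.9% ± 2.53) and Ddx5 (2, 25.3% ± 3.54; SD, n = 3 throughout). In the RNA helicase gene Ddx5, Ddx5-208, which keeps an intron, took 20.1%, 11.0% and 6.27% in replicates 1, 2 and 3. Ddx5-205, which leaves out an exon, took 8.44%, 14.9% and 15.3%, so the first was highest in replicate 1 where the second was lowest. In Rpl13a, Rpl13a-216 took 9.35%, 9.34% and 11.0% and Rpl13a-205 4.03%, 8.41% and 14.0%, both highest in replicate 3. Aup1-208 and Aup1-206, from the gene of a lipid droplet and ER protein, took 23.9%, 29.6% and 28.3% and 13.6%, 12.9% and 11.5%.

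The share of its gene's TPM that a member took had a median of 21.6%, with quartiles of 9.87% and 36.1% and a range of 0.413% to 100%. A share under 10% was found in 145 members, 10% to 25% in 179, 25% to 50% in 171 and over 50% in 76, with 1 member, Gm38394-202 (named after its value was seen), at exactly 50%, the median share in a single library being 20.84%, 21.02% and 21.53%. Protein-coding transcripts under the same minimum had a median share of 63.2%. This set was not limited to genes with another transcript, so the medians are not a matched comparison. The share differed between libraries for 11241 of these 12072 transcripts and for 569 of the 572 members. In 57 members the share was over 50% in every library. The member exceeded the main coding transcript in every library in 135 of 568 cases.

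**Figure D2:**
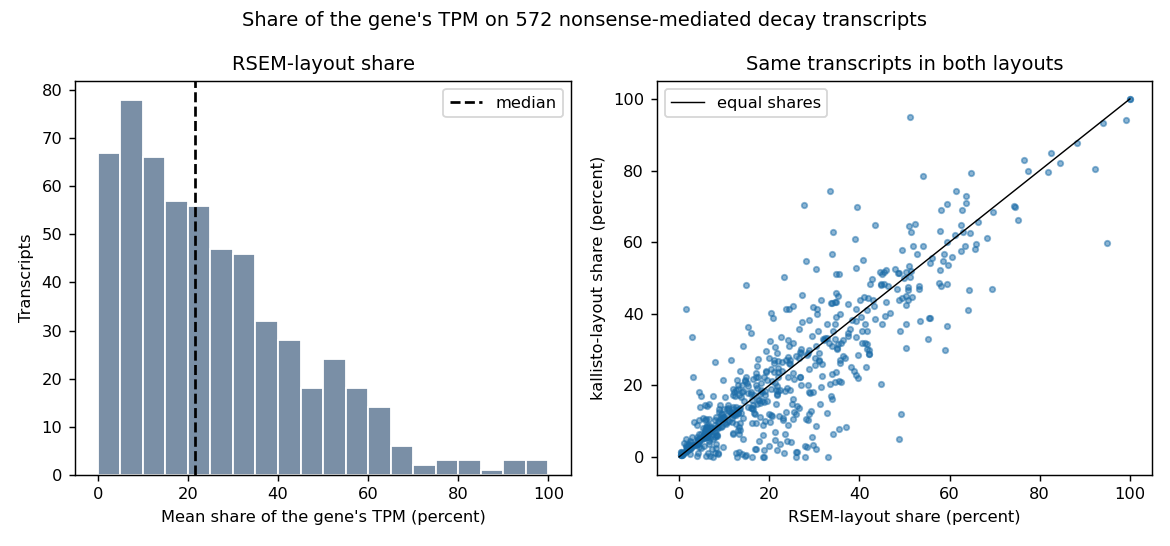
Left, number of members by mean share of the gene's TPM (percent, bins of 5) with the median of 21.6% as a dashed line. Right, the share in the RSEM-layout tables (x axis, percent) against the kallisto-layout tables (y axis, percent), 1 point per member, with the line of equal shares: most points lie near it and 42 lie over 20 percentage points away.

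The same reads were quantified a second time in the tables of kallisto layout. There the median share of the members was 18.6%, and the share over members correlated with that of the first tables (Spearman's rho = 0.82, Pearson's r = 0.87, n = 572 transcripts, which share the libraries and the reads). The 2 shares lay within 5 percentage points in 307 members and over 20 points apart in 42, of which 26 were higher in the first tables and 16 in the second. Of the 57 members over 50% in every library, 41 were so in both. Levels in TPM were offset for coding transcripts too: the median ratio of the first tables to the second was 2.33 for members and 2.52 for coding transcripts. Protein-coding genes as a whole also held a larger part of all TPM in the first tables. Of the TPM of protein-coding genes, members held 1.46% in the first tables and 1.47% in the second (means of 3 libraries). On the unscaled TPM, 252 members were at or above 1 in every kallisto-layout table.

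The largest disagreements were of a few kinds. Vps13c-203, Nfkb1-207, Cnot1-212 and Myof-205 were listed at 0 in all 3 kallisto-layout tables, against 14.99, 9.45 and 15.9 TPM for Myof-205, the highest of these, in the first tables. Mgat4b-205, from a gene of N-glycan branching, was at 3.70, 3.46 and 3.52 TPM in the first tables and was listed at or next to 0 in the second. In the other direction, Rsad2-202, Ifi209-202, Asah1-202, Man2b1-203 and Riok3-204 had the lowest ratios. Ifi209-202, from an interferon-inducible gene, took 2.09%, 1.26% and 5.28% in the first tables and 33.0%, 32.8% and 35.1% in the second. For Asah1-202, from the lysosomal acid ceramidase gene, the shares were 4.48%, 1.24% and 3.55% and 27.8%, 16.4% and 22.6%. Man2b1-203 (lysosomal alpha-mannosidase) took 2.74%, 4.93% and 5.86% against 18.5%, 20.9% and 14.9%, and Riok3-204 (an atypical kinase) 4.48%, 4.01% and 6.19% against 13.7%, 17.8% and 19.2%.

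Ppia-201 was the most abundant member. Ppia encodes cyclophilin A, a prolyl isomerase and the target of cyclosporin. The transcript stood at 353, 264 and 399 TPM in replicates 1, 2 and 3 and took 64.0%, 63.6% and 63.4% of the gene's TPM, a mean of 63.7% ± 0.294 (SD, n = 3). The shares of the 3 libraries differed by less than 1 percentage point, although the level in TPM was lowest in replicate 2. In the kallisto-layout tables the shares were 74.6%, 70.8% and 67.0%, a wider spread. Ppia has many near-identical processed copies in the mouse genome, so its reads could have been divided among them.

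Rgs1-204 came next. Rgs1 encodes a regulator of G protein signalling that dampens chemokine receptor signals. Its TPM was 321, 91.2 and 387, with replicate 2 far below the others, while its share was 61.0%, 59.1% and 56.3%. In CPM the transcript was at 497, 191 and 601, a ratio of 3.15 between the highest and lowest replicate, and the gene as a whole at 2.92. The low value in replicate 2 was thus one of the whole gene, and the share of the decay transcript moved by under 5 points.

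The leukocyte receptor genes Lilr4b and Lilrb4a, which encode immunoglobulin-like receptors of myeloid cells, each gave an abundant member. Lilr4b-204 was at 171, 76.8 and 142 TPM with a share of 37.8%, 43.6% and 40.1%. Lilr4b-213, its second member, was at 34.3, 11.1 and 31.7 TPM. Lilrb4a-205 was at 140, 58.4 and 161 TPM with a share of 37.2%, 49.4% and 72.9%, the widest spread of shares among the 12 most abundant members, and the kallisto-layout shares were 27.0%, 44.0% and 69.9%. The 2 genes are close paralogs on chromosome 10, and how reads were divided between them is uncertain.

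Of 16 expressed genes of the interferon response with an annotated decay transcript, 10 held a member (62.5%, against 18.3% of all such genes). They held 12 members in all, with a median share of 5.26% (range 0.413% to 59.3%). Oasl2-205, from an oligoadenylate synthetase-like gene, was at 118, 100.9 and 144 TPM and took 57.9%, 60.5% and 59.7%. Mx1-205, from the gene of the antiviral GTPase Mx1, was at 78.2, 81.1 and 151 TPM, highest in replicate 3, and took 49.6%, 53.7% and 47.4% in the first tables but 23.9%, 34.8% and 32.7% in the second. The other members of the same gene, Mx1-210 and Mx1-203, were at 10.3, 7.97 and 19.1 and 7.58, 7.08 and 13.4 TPM. Xaf1-201, whose gene encodes an antagonist of the apoptosis inhibitor XIAP, was at 41.5, 32.6 and 60.6 TPM with 41.8%, 43.4% and 40.1% of the gene. Rsad2-202, from the gene of viperin, an antiviral enzyme, was at 5.32, 1.05 and 3.53 TPM but only 0.790%, 0.200% and 0.250% of a very abundant gene. Its mean share of 0.413% in the first tables was the lowest of the list. It was also 1 of the 5 members with the smallest ratio of TPM in the first tables to the second.

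Ribosomal protein genes had members in 11 of 18 expressed genes with an annotated decay transcript (61.1%, against 18.3% of all such genes). The 13 members had a median share of 9.91% (range 1.49% to 61.4%). Rpsa-206, from the gene of a small-subunit protein also known as the laminin receptor, was at 82.8, 56.9 and 77.5 TPM with 60.9%, 58.4% and 65.0%. Rpl12-201, from the gene of a large-subunit protein, was at 62.8, 31.5 and 40.03 TPM with 50.2%, 39.4% and 40.7%. In the second tables Rpl12-201 was at only 2.19, 0.778 and 0.447 TPM, with 66.3%, 70.4% and 57.9% of the gene. Ribosomal protein genes also have many processed copies, with the same uncertainty as for Ppia.

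Ostf1-205, from a gene of osteoclast signalling, was at 86.7, 76.0 and 89.5 TPM with a share of 63.2%, 64.3% and 61.3%, close to the 62.8%, 64.3% and 61.3% of the second tables. Ctsh-202 leaves out an exon of the lysosomal protease cathepsin H. It was at 69.2, 86.2 and 96.8 TPM with 37.8%, 45.8% and 40.5%, and at 21.2%, 25.9% and 28.1% in the second tables. Hnrnpu-206, an RNA- and chromatin-binding protein of the nuclear matrix, was at 71.7, 56.8 and 80.0 TPM and took 79.2%, 80.9% and 85.1%, the highest share among the 12. Its length is 2844 bases against 7640 of Hnrnpu-201, the main coding transcript, which has a long 3′ UTR.

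**Figure D3:**
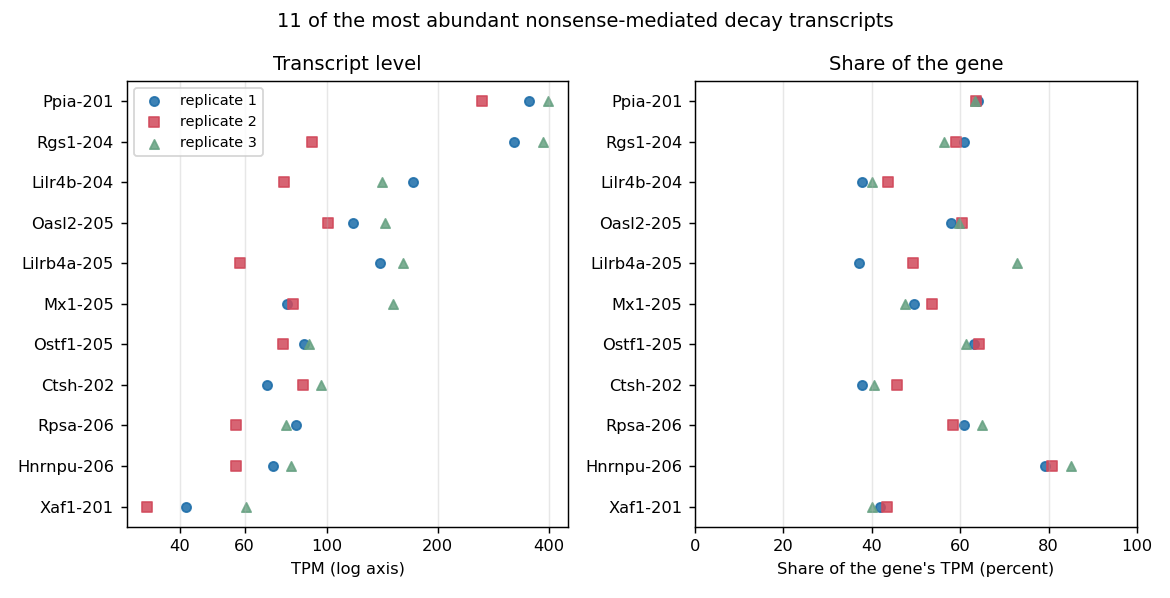
Of the members with the highest mean TPM, 11 are shown, 1 marker per replicate. Left, TPM on a log axis, where replicate 2 is lowest for 9 of the 11. Right, share of the gene's TPM in percent, where the replicates lie closer, except for Lilrb4a-205 at 37.2%, 49.4% and 72.9%.

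Splicing genes are the classic sources of decay transcripts, and 3 lists of them were examined. Of 12 expressed SR protein genes, the serine/arginine-rich activators of exon inclusion, 11 have an annotated decay transcript and 4 held a member (36.4% of the 11). Srsf2-204, which ends on the same stop codon as the main transcript and has 2 junctions in its 3′ UTR, was at 31.2, 17.6 and 20.6 TPM and took 55.3%, 45.6% and 47.5%. Srsf3-201, which carries the added exon of 456 bases, was at 4.29, 2.81 and 4.93 TPM with 15.6%, 15.1% and 21.1% (kallisto layout 19.9%, 25.4% and 30.8%). Tra2b-206, from the gene of a splicing activator that binds GAA repeats, was at 2.16, 2.43 and 3.16 TPM with 7.73%, 14.3% and 14.2%. Srsf6-201 was at 1.43, 1.46 and 2.83 TPM with 9.36%, 13.4% and 21.8% in the first tables and 38.1%, 53.0% and 52.6% in the second, the widest disagreement of the 4. The best-measured SR transcripts outside the selection were Tra2a-202, at 1.84, 0.68 and 0.63 TPM, and Srsf4-204, at 1.21, 0.69 and 0.85 TPM, both kept out by their lower libraries.

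Of 34 expressed genes of hnRNP and other splicing regulators with an annotated decay transcript, 15 held a member (44.1%). Their 19 members had a median share of 16.0% (range 1.75% to 81.7%). After Hnrnpu-206, Hnrnpa1-203 was at 23.6, 13.1 and 17.6 TPM and 41.2%, 32.8% and 38.4%. Hnrnpd-208, from the gene of AUF1, which binds AU-rich mRNAs, was at 17.5, 13.7 and 13.5 TPM and 35.8%, 35.9% and 29.9%. Rbm39-225 was at 9.54, 5.39 and 7.44 TPM and 10.8%, 13.3% and 17.1%. Hnrnpdl-201 was at 8.22, 4.94 and 7.84 TPM and 25.6%, 25.8% and 40.3%, and Qk-202, from the gene of the RNA-binding protein quaking, was at 6.85, 3.91 and 8.77 TPM and 13.2%, 10.3% and 17.3%. Of the core spliceosome, 4 of 20 genes held a member (20.0%). Sf1-201, the branch point binding factor, took 9.37%, 11.7% and 12.4%, and Prpf38b-208 took 10.4%, 12.2% and 9.82%. Sf3b1-208, a part of the U2 snRNP, took 4.88%, 5.73% and 6.42%, and Snrpa1-201, another U2 protein, took 15.5%, 11.1% and 11.2%.

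Across these 3 lists, 27 members in 23 genes were found, of which 7 (25.9%) kept the stop codon of the main coding transcript, against 6.99% of all members. These were Srsf2-204, Hnrnpa1-203, Hnrnpd-208, Hnrnpdl-201, Qk-202, Hnrnpa2b1-207 and Khdrbs1-202. The share was highest in replicate 1 for 6 of the 27, in replicate 2 for 8 and in replicate 3 for 13. These counts have no test, since the lists were chosen with results in view.

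**Figure D4:**
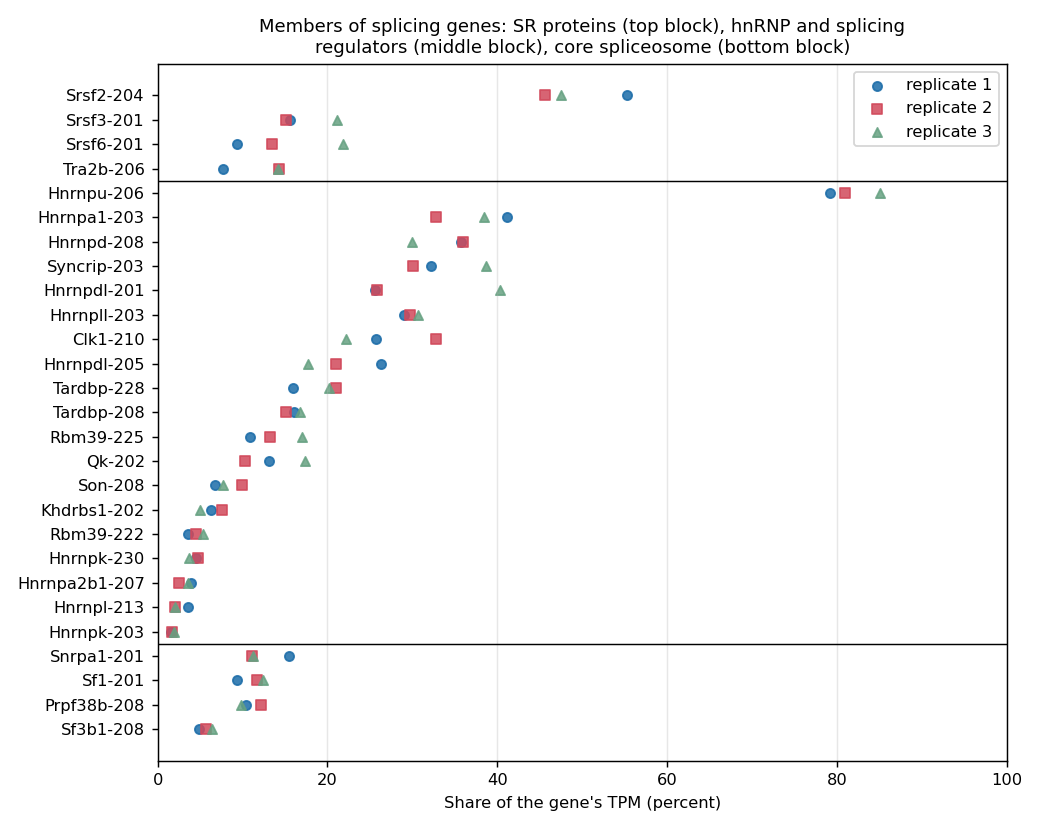
Share of the gene's TPM (x axis, percent) for the 27 members in splicing genes, 1 marker per replicate, grouped as SR proteins (top), hnRNP and splicing regulators (middle) and core spliceosome (bottom). Hnrnpu-206 stands apart at 79.2%, 80.9% and 85.1%, and the 4 core spliceosome members lie between 4.88% and 15.5%.

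The factors of the decay pathway themselves gave no member. All 27 genes of that list were expressed and 5 have an annotated decay transcript. Of these, Smg6-202, from the gene of the endonuclease that cuts decay targets, had the highest mean at 0.08, 0.54 and 0.48 TPM, and Smg5-202 was at 0.32, 0.17 and 0.16 TPM. In 5 genes a count of 0 is a small basis, and the annotation of decay transcripts limits it.

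Metabolic and proteostasis genes contributed further members. In the respiratory chain list 7 of 20 genes (35.0%) had a member, 8 members in all, with a median share of 24.02%. Atp5f1-203, ATP synthase, was at 41.7, 29.3 and 26.9 TPM and 59.9%, 54.2% and 38.0%, Ndufa3-204 of complex I at 27.6, 21.3 and 46.8 TPM and 38.5%, 40% and 47.3%, and Ndufs4-202 at 12.5, 11.4 and 12.9 TPM and 50.5%, 55.7% and 46.3%. The shares of Atp5f1-203 spanned more than 20 points, those of the other 2 less than 10. Proteasome genes had a member in 4 of 12 (33.3%), with a median share of 10.7%. There Psma3-201 took 16.0%, 17.5% and 12.2%, Psmd13-211 35.9%, 32.2% and 33.8% and Psme1-209 3.94%, 5.28% and 3.15%. Of lysosomal and phagosomal genes 2 of 9 (22.2%) had a member, Ctsh-202 and Gusb-206. Gusb-206, the lysosomal beta-glucuronidase, was at 12.9, 11.3 and 13.6 TPM and 15.2%, 19.3% and 15.8%. Its shares in the second tables were 1.30%, 1.59% and 3.999%.

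Translation factor genes had a member in 3 of 8 (37.5%), with 5 members. Eef1b2-205, an exchange factor of elongation, was at 44.0, 28.5 and 34.4 TPM and 50.0%, 45.7% and 38.8%. The initiation helicase gene Eif4a2 gave 3, among them Eif4a2-210 at 44.3%, 47.1% and 45.9% and Eif4a2-204 at 19.4%, 22.3% and 14.9%. Stress and polyamine genes had a member in 5 of 7 (71.4%). Hspa5-204, from the gene of the ER chaperone BiP, was at 36.8, 27.5 and 61.7 TPM and 14.7%, 17.7% and 19.1%. Sat1-207, from the polyamine acetyltransferase gene, was at 16.0, 9.22 and 16.8 TPM and 9.30%, 7.26% and 9.11%. Mdm2-209, from the gene of the ubiquitin ligase of p53, was at 20.1, 7.31 and 11.1 TPM, highest in replicate 1, and at 25.2%, 20.5% and 14.2% against 5.10%, 1.81% and 2.24% in the second tables.

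Signalling genes of the Lipid A response were also examined. Of the Toll-like receptor and NF-kB list, 16 expressed genes have an annotated decay transcript and 2 held a member (12.5%), against 18.3% of all such genes. Rnf31-207, from the gene of the linear ubiquitin ligase HOIP, was at 3.37, 2.66 and 4.94 TPM and 22.6%, 21.8% and 19.4%, and Nfkb1-207, from the gene of the NF-kB subunit p105, at 1.87, 2.09 and 2.48 TPM and 5.48%, 9.94% and 7.18%, with both lower or at 0 in the second tables. In the cytokine and chemokine list 1 expressed gene has such a transcript, Cxcl16, a chemokine that is made as a membrane protein. Cxcl16-202 was at 28.5, 16.7 and 41.5 TPM and 31.7%, 27.9% and 37.1%. Antigen presentation genes had a member in 2 of 4 (50.0%). H2-Eb1-205, MHC class II beta chain, was at 24.3, 17.4 and 25.3 TPM and 48.4%, 51.7% and 46.4%. H2-T22-205, a non-classical class I gene, took 1.03%, 1.07% and 0.770%.

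In 76 members the mean share was over 50%, so the transcript annotated for decay was the larger part of its gene. Gm21988-201 and Gm20716-201 took 100% of their gene in the mean. Among members whose gene has another transcript at 0.1 TPM or more, Ifi214-201, from an interferon-inducible gene, was highest at 94.8% ± 1.83 (SD, n = 3), though the second tables gave 39.9%, 63.2% and 76.2%. Hyi-202, from the gene of a putative hydroxypyruvate isomerase, took 94.1% ± 2.74 (SD, n = 3) and Evi2-201 92.2% ± 8.09 (SD, n = 3). The mitochondrial ribosome gave Mrps14-201 at 88.2% ± 1.83 (SD, n = 3) and Mrpl32-201 at 82.5% ± 3.11 (SD, n = 3). Aptx-205, from the gene of the DNA repair enzyme aprataxin, took 84.6% ± 3.10 (SD, n = 3). Commd2-201 took 77.3% ± 4.53 (SD, n = 3), Tsr2-203, from a gene of ribosome assembly, 76.6% ± 1.32 (SD, n = 3), and Khnyn-203, from the gene of a cofactor of the antiviral protein ZAP, 75.3% ± 1.63 (SD, n = 3). Of the 73 such members with a main coding transcript, 55 were the shorter of the pair, with median lengths of 2020 and 3013 bases.

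The other members over 50% fell into several roles. In the mitochondrion they were Mrpl13-202, Mrpl35-202, Pet100-206, Sdhaf2-206, Slc25a12-207, Mtch2-203, Pgs1-201, Nsun3-202, Gtpbp3-202 and Primpol-208. In splicing, chromatin and transcription they were Prpf4b-208, Cbx1-204, Hmgxb4-206, Sra1-203, Mnat1-203, Zmym5-205 and Zfp950-203. Ribosome assembly gave Gtpbp4-201 and Tma16-202. Immune and receptor genes gave Il4ra-205, the interleukin 4 receptor chain, at 53.7%, 50.4% and 58.3%, Mr1-204, an antigen-presenting molecule for mucosal-associated invariant T cells, at 58.0%, 57.7% and 50.9%, and Gbp4-202, an interferon-induced GTPase, at 55.0%, 54.5% and 50.1%. In the same group stood Nkiras1-201, an inhibitor of NF-kB signalling, at 71.8%, 73.6% and 77.4%, Stab2-205, a scavenger receptor, Sh2b3-205 and Pdgfc-202. Redox and small-molecule enzymes were Prdx6-208, a peroxiredoxin, at 66.8%, 64.3% and 68.1%, Glo1-201, glyoxalase 1, at 49.7%, 51.4% and 49.8%, and Sms-204, spermine synthase, at 60.4%, 55.3% and 62.6%. Membrane traffic, membrane lipids, transporters and channels gave Gga2-202, Tmf1-202, Slc35b1-202, Eipr1-201, Cdipt-207, Mtmr2-203, Panx1-201 and Dirc2-202. The rest were Uggt1-209, Uxs1-201, Zbtb8os-201, Naa60-201, Dbndd2-206, Syce2-201, Styx-204, Glb1l-207, Tesk1-204, Cdk5rap2-201, Mroh1-208, Rnf114-203, Ppp2r2a-203, Lancl2-203, Ric8a-211, Gm45140-202 and Gm42715-201.

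Levels were compared between the replicates with a chi-square test of heterogeneity on expected counts, whose variance held both counting error and the deposited SD of the read assignment, adjusted by Benjamini-Hochberg over all 34626 transcripts tested. At an adjusted p under 0.05 the levels of 217 of the 572 members varied between replicates, which is 37.9%, against a background of 44.3% of all transcripts tested. For coding transcripts under the same TPM minimum it was 58.1%, and for retained-intron transcripts 54.1%. Without replicate 3 the number of members past the test was 119. Counts differ between these sets, with a median of 406 expected counts for members, 1081 for coding and 279 for retained-intron transcripts, and the assignment SD was 9.86% of the count for members and 2.95% for coding transcripts. Within 100 to 1000 counts the shares past the test were 37.1% of 375 members, 40.6% of 5244 coding and 56.6% of 477 retained-intron transcripts. Above 1000 counts they were 62.8% of 113, 76.0% of 6310 and 86.9% of 130.

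A ratio of at least 2 between the highest and lowest replicate in CPM was found in 79 members (13.8%), against 6.34% of coding and 28.4% of retained-intron transcripts under the same minimum. The order of members and coding transcripts depended on count. For members, coding and retained-intron transcripts it was 15.5%, 21.8% and 25.3% within 10 to 100 counts. Within 100 to 1000 counts it was 15.2%, 7.19% and 27.9%, and above 1000 it was 7.96%, 4.37% and 33.8%. Of these 79, 64 also passed the heterogeneity test. The parent gene had a ratio of at least 2 in 10 of the 79, so in 69 the gene as a whole moved less. The median ratio was 1.43 for the members and 1.17 for their genes. Without replicate 3 the count was 29, and without replicate 1 or 2 it was 43. The share was highest in replicates 1, 2 and 3 for 167, 183 and 219 of the 569 members whose share was not equal in all libraries. For retained-intron transcripts these counts were 368, 195 and 204. Replicate 1 was the highest for 29.3% of the members, 24.5% of coding and 48.0% of retained-intron transcripts, and the part of nuclear RNA in these shares was not tested.

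The 6 widest ratios past the test came from transcripts with 1.26% to 35.4% of their gene. Coro1c-205, from the gene of an actin-binding coronin, was at 1.02, 3.85 and 6.89 TPM and 4.14, 21.1 and 27.8 CPM, a ratio of 6.73, and took 1.59%, 8.28% and 10.5%. Its assignment SD was 30.1% of the count, and the second tables gave it 0.330%, 0% and 0.177%. Ifi209-202 had a ratio of 6.68 with 4.69, 2.76 and 18.5 CPM. Grk2-209, from a G protein-coupled receptor kinase gene, was lowest in replicate 3 with 3.70, 5.21 and 1.10 CPM, and so was Plxna1-203, from a semaphorin receptor gene, with 5.31, 4.05 and 1.28 CPM. Replicate 2 was lowest for 4933434E20Rik-208 at 6.19, 2.94 and 13.8 CPM and for Selenok-203, from the gene of an ER selenoprotein, at 11.2, 3.10 and 13.0 CPM. The library that stood low was thus not the same for these 6. Their genes had ratios between 1.05 and 1.58.

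**Figure D5:**
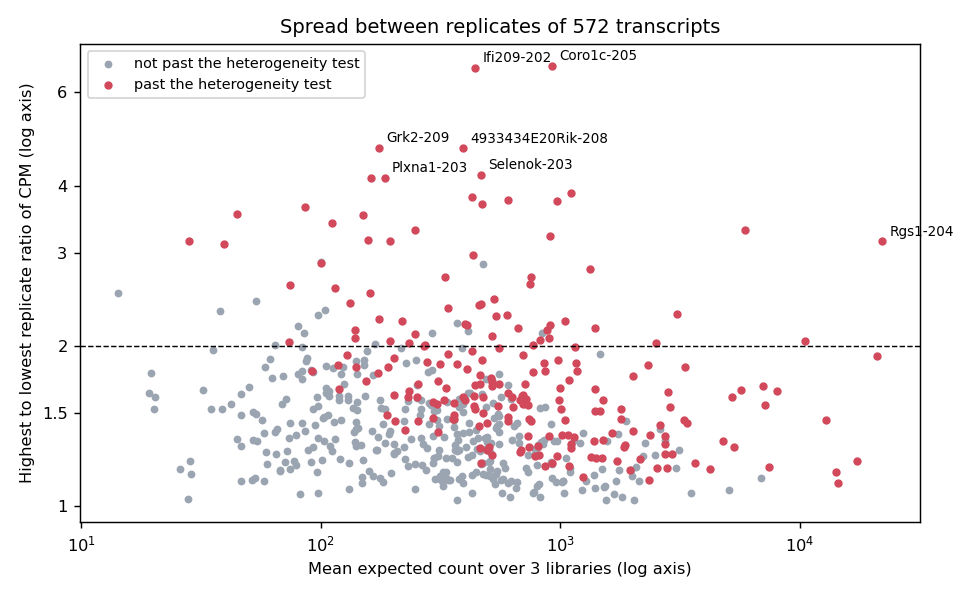
Ratio of the highest to the lowest replicate in CPM (y axis, log) against the mean expected count (x axis, log) for the 572 members. Red points passed the heterogeneity test (217) and the dashed line marks a ratio of 2, which 79 members reach; Rgs1-204, at 3.15, has the highest count of all.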

How the data were processed

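Cytosolic total RNA without its ribosomal part was sequenced in 3 libraries (input 1 µg, fragments of 250 to 400 bases, per the labels). The genome was mm10 and the annotation GENCODE M21, per the notes deposited with the files. The program versions and the strand setting were not given in the sources used here, nor was the level of the deposited intervals. Per the file headers, the authors deposited per library gene and transcript tables in RSEM layout with expected counts, TPM, the share of the gene in percent (IsoPct), posterior SDs and TPM interval bounds, the last 2 each treated as a score, and a transcript table in kallisto layout with estimated counts and TPM. Both were deposited as made, with no pooling of replicates stated.

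The members and the 14 gene lists were chosen with earlier results of these data known. All 572 members matched GENCODE M21. TPM and shares are given as deposited, with the mean ± SD of 3 libraries. Kallisto-layout shares were computed as a transcript's TPM over its gene's. Expected counts were rounded to whole numbers and scaled with TMM (edgeR 4.0.16). The chi-square heterogeneity test (2 degrees of freedom) used a mean count of at least 10, a variance of the fitted count plus the squared posterior SD, and Benjamini-Hochberg adjustment with a threshold of 0.05. It was run on simulated counts drawn with the same form of variance, so that run cannot show how it behaves where replicates differ further. Other settings were DESeq2 1.42.0 size factors, other minimums, the second tables and leaving out each replicate. Depth was 47972062 to 54409436 expected counts per library. List genes were matched by symbol, and where 2 genes share a symbol the one with the higher TPM was used. Python 3.11.15, scipy 1.17.1 and R 4.3.3 were used.

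The text names the 12 members of highest mean TPM, the 10 of largest share among genes with another transcript at 0.1 TPM or more and all over 50%, those of the splicing and decay lists (the 6 highest where a list had more than 15), the 3 highest of the other lists, the 4 nearest the minimum on each side, the 5 largest and 5 smallest ratios between tables, the 6 widest replicate ratios past the test and the 6 genes with the largest sum over several members. 1 gene that this rule names is not reported here.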

Additional observations from a re-analysis of the deposited data

How the results depend on the processing

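The number of decay transcripts at the minimum changed with where the minimum stands: 873 passed at 0.5 TPM, 308 at 2 TPM and 144 at 5 TPM. With kallisto-layout TPM 288 passed, and with TPM rescaled to protein-coding genes 1102 passed, since those genes hold 26.1% to 37.0% of all TPM. Posterior mean TPM gave 585, and leaving out 1 replicate gave 597 to 667. The median share was 18.6% in the kallisto layout, 20.7% from posterior means and 27.0% at a minimum of 2 TPM, and 21.2% without any 1 replicate (lowest 21.17, highest 21.20). The number over 50% in every library was 57 to 64 in the settings that keep this rule, and 76 were over 50% in the mean. The number past the heterogeneity test was 441 with Poisson variance alone, and 119 to 159 without 1 replicate, where fewer libraries enter: 119 without replicate 3. With DESeq2 size factors it was 214, all shared with the 217. The number with a ratio of at least 2 was 114 with kallisto-layout counts, 250 at a ratio of 1.5, and 29 to 43 without 1 replicate. With no test between conditions, no paired analysis was possible because there is 1 group. Depth limits transcripts of low count: of 84 members with 10 to 100 counts, 7 passed the heterogeneity test, against 71 of 113 above 1000.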
